A study of Mus musculus with 10 samples.

Results

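The genes described here are 10 regulators of lipid synthesis, namely *Srebf1*, *Srebf2*, *Scap*, *Insig1*, *Insig2*, *Mlxipl*, *Mlx*, *Nr1h2*, *Nr1h3* and *Rxra*. They were chosen by name, as the sterol-sensing, carbohydrate-sensing and oxysterol-sensing transcription factors with their partners, and all 10 were found among the 27267 genes listed. All 10 were also among the 13714 genes that passed a filter of a mean normalized count of at least 10. RNA was sequenced from interscapular brown adipose tissue (iBAT) of 5 wild-type and 5 *Mgp*-KO mice, each a separate library of single reads of 50 bases. All mice were labelled as C57BL/6 males of 4 weeks, kept on chow and a standard light cycle. *Mgp* encodes matrix Gla protein, a secreted inhibitor of bone morphogenetic proteins. The knockout was global and came from the B6.129S7-Mgptm1Kry/KbosJ line, so by design the gene was missing from every tissue and not only from fat, and the wild-type mice carried no engineered allele.

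As background, SREBP-1 (*Srebf1*) and SREBP-2 (*Srebf2*) are made as inactive precursors in the membrane of the endoplasmic reticulum. SCAP escorts them to the Golgi for cleavage when sterols are low, and the INSIG proteins hold SCAP back when sterols are high. SREBP-1 mainly drives genes of fatty acid synthesis and SREBP-2 genes of cholesterol synthesis. ChREBP (*Mlxipl*) responds to glucose metabolites and binds DNA as a dimer with MLX, while the liver X receptors LXRα (*Nr1h3*) and LXRβ (*Nr1h2*) bind oxysterols and act as dimers with RXRα (*Rxra*). In brown fat these factors drive the lipid synthesis that refills droplets. Cleavage of SREBP, ligand binding and nuclear entry are not seen in RNA levels, and the values below are transcript levels only.

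The promoter sequences below are printed because they carry letters that tie some of the regulators to each other and to *Fasn*, which encodes fatty acid synthase, the enzyme with which each regulator is compared. They come from RefSeq on the GRCm38.p6 build and run 5′ to 3′ on the strand of the gene, ending at the annotated first exon. The third annotated start of *Srebf1*, which as background is the one used for the SREBP-1c form, follows chr11:60210472-60210721 on the minus strand. The *Fasn* window lies at chr11:120824548-120824797 on the minus strand. In both, the first capitals mark a direct repeat, GGGTTA followed after any 4 bases by CGGTCA and read here on the opposite strand, which as background is a known LXR response element. The other capitals mark the CCAAT box or its reverse complement.
*Srebf1*, start of SREBP-1c: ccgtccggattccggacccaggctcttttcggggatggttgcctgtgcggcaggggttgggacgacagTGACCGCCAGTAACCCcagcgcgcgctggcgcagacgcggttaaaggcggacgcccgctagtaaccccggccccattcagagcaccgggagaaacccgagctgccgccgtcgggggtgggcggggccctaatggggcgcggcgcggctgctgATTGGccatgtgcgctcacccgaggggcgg
*Fasn*: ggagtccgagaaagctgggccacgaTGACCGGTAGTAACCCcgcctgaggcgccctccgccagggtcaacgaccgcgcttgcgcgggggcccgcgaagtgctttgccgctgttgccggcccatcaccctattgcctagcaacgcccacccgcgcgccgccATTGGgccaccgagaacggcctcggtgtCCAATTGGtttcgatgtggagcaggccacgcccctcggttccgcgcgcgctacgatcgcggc

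The repeat began 182 bases before the start in *Srebf1* and 225 bases before it in *Fasn*. Both strands of the 250 bases before each start were searched, and 3 of 32851 windows in the whole table held it (0.00913%), the remaining one being that of *Abca1*, which exports cholesterol. The letters were chosen after these windows had been read, so their rarity is a description and not a test. The consensus form, AGGTCA and again AGGTCA after any 4 bases, was in 5 windows (0.0152%) and in none of the 10 regulators.

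The *Srebf2* window, at chr15:82147019-82147180 on the plus strand, and the *Insig1* window, at chr5:28071162-28071362 on the plus strand, are shown because *Srebf2* alone among the 10 genes held the sterol-response-like motif TCACCCCA and because *Insig1* held the E-box CACGTG. Capitals mark these motifs and the CCAAT box on either strand.
*Srebf2*: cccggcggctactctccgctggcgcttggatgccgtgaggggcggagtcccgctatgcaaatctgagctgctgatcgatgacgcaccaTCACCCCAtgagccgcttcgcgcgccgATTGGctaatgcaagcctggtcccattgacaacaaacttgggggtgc
*Insig1*: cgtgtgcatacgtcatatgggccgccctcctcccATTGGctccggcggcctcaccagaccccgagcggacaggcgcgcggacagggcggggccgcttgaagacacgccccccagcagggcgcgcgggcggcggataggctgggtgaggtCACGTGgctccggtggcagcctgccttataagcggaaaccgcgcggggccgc

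TCACCCCA was in 1.34% of all windows of 250 bases. The E-box, which as background is contained in the element that ChREBP and MLX bind, was in 6.02% of windows and in 4 of the 18 windows of the regulators, those of *Insig1*, *Mlx*, *Mlxipl* and *Scap*. The CCAAT box, which as background binds NF-Y beside SREBP, was in 33.8% of windows and in 7 of the 18 windows of the regulators, those of 6 genes. A match says only that the letters are present.

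The libraries held between 9253793 and 22252260 reads counted on genes, and 1 read was worth less than 2 normalized counts in each, so the regulators, with at least 160 reads in every library, were well above the floor of 3 reads. Replicates 1 to 3 of both genotypes (0.771% to 1.72% of reads on mitochondrial ribosomal RNA) stood apart from replicates 4 and 5 of both (6.50% to 16.7%). *Mgp* itself had normalized counts of 576, 489, 466, 1146 and 839 in wild type 1 to 5, and of 0, 0.765 and 0.821 in *Mgp*-KO 1 to 3. The libraries labelled *Mgp*-KO 4 and 5 held 500.2 and 331, from 309 and 282 reads, which goes against their label. Wild type 2, labelled male, held 5094 normalized counts of *Xist* and 3.74 over the summed genes of the Y chromosome, where the other libraries held 0.754 to 44.0 and 1457 to 7035. Labels were kept as given, and the genotype difference of each regulator is given also within replicates 1 to 3, where *Mgp* follows the labels. *Ucp1*, which defines brown fat, was present in every library, from 2201 to 116019 normalized counts.

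The first comparison asked whether the regulators themselves differed with genotype. None of the 10 passed the test over all 10 libraries (limma on log2(normalized count + 1), Benjamini-Hochberg over all 13714 genes tested, adjusted p under 0.05), where 0.0656% of all genes did, 9 in number. All 10 had a log2 fold change below 0, with a median of -0.33, against a median of 0.03 over all tested genes, of which 47.3% lay below 0. At an unadjusted p under 0.05 stood 1 of the 10, *Nr1h3*, beside 10.4% of all genes. DESeq2 called *Nr1h3*, and edgeR called none of the 10 and 0.0219% of all genes. In bulk tissue, fewer cells of a type and less RNA per cell cannot be told apart. Summed markers of brown adipocytes ran from 77967 to 172262 in wild type and from 27556 to 69080 in the libraries labelled *Mgp*-KO, without overlap. By itself only 1 of the 8 markers separated the groups, the abundant *Ucp1*, with means of 60876 and 10201. Among all genes 2.11% did so as lower. Of these 8 markers 7 lay below 0 and none passed in limma over all libraries, while 3 passed as lower with a term for the sets (*Ucp1*, *Dio2* and *Elovl3*), 2 within replicates 1 to 3 and 2 with DESeq2, beside 1.54%, 1.65% and 1.26% of all genes in these fits. General adipocyte markers overlapped in their sums (175691 to 299975 and 160252 to 250639), as did endothelial markers (18244 to 29746 and 21118 to 53976), of which 8 of 8 lay above 0, with no call in limma. The part of these markers in the results below was not tested. Summed skeletal muscle markers varied widely in both groups (40.4 to 5841 and 35.3 to 32829), and their part was not tested either.

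**Figure D1:**
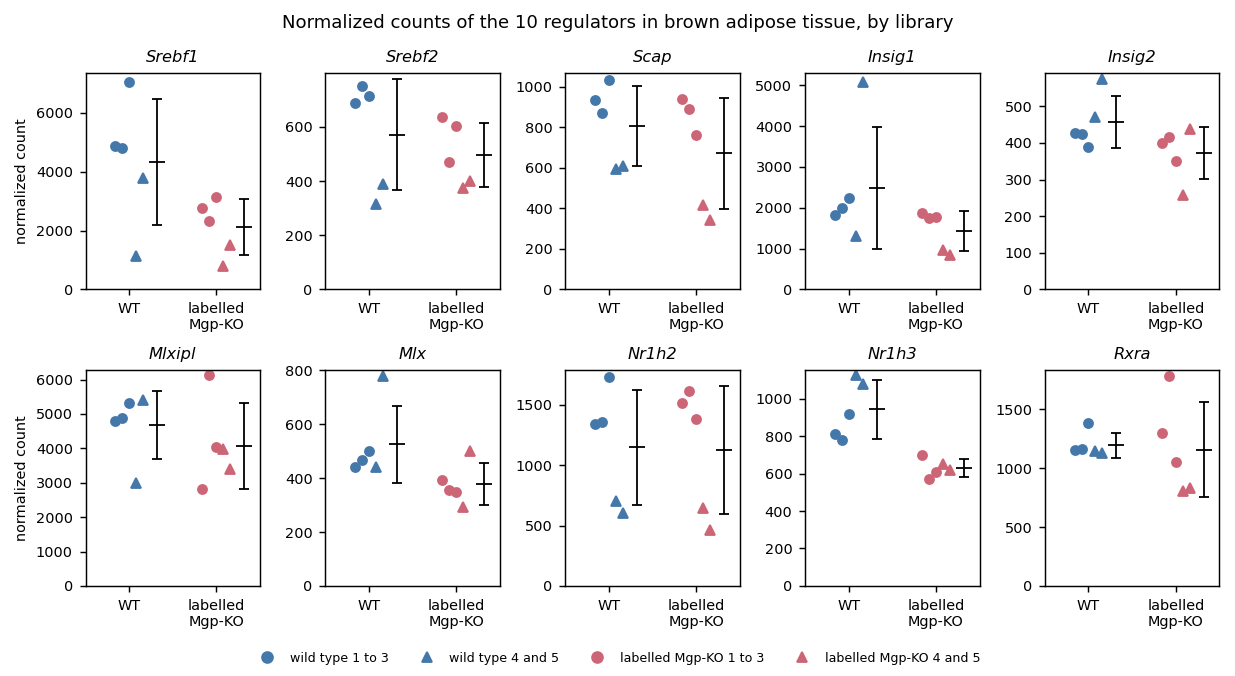
Normalized counts (linear axes from 0) of the 10 regulators in each library, with circles for replicates 1 to 3, triangles for replicates 4 and 5, and black bars for the mean ± SD of 5 libraries. Only in *Nr1h3* do the 5 wild-type libraries (780 to 1129) all lie above the 5 labelled *Mgp*-KO (569 to 699).

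LXRα was the regulator whose groups separated. *Nr1h3* (chr2:91184061-91202834, minus strand, GRCm38) held 812, 780, 917, 1129 and 1082 normalized counts across wild type 1 to 5, against 699, 569, 610, 651 and 621 across the libraries labelled *Mgp*-KO 1 to 5. Every wild-type library was higher than every library labelled *Mgp*-KO, in replicates 1 to 3 as in 4 and 5, and the knockout-labelled group was the tighter one, with a coefficient of variation of 7.66% against 16.6%. The mean was 944 ± 157 (SD, n = 5) for wild type, against 630 ± 48.3 (SD, n = 5) for the other group, a log2 fold change of -0.57 ± 0.16 (SE) with a 95% interval of -0.92 to -0.22. In limma the adjusted p was 0.215, and the unadjusted p was 0.00443. An exact two-sided permutation test of this gene alone gave p = 0.00794, the smallest that 5 against 5 can give. Of all genes tested, 3.5% had groups that did not overlap and 2.11% did so with the lower values in the *Mgp*-KO group.

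The call on *Nr1h3* moved with the tool and with the model. With a term for these sets in limma the fold change stayed at -0.57, its SE was 0.13 and the adjusted p was 0.0431, in a fit that called 2.36% of all genes. DESeq2 on the recovered reads gave an adjusted p of 0.0246, calling 2.26% of genes, and with the set term 0.00103, calling 7.42%. Within replicates 1 to 3 the log2 fold change was -0.42 (adjusted p = 0.12 in limma) and within replicates 4 and 5 it was -0.80 (adjusted p = 0.679). Leaving out any 1 library left it between -0.63 and -0.50, with no call.

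Its paralogue LXRβ showed no such separation. *Nr1h2* (chr7:44549616-44553951, minus strand) held 1345, 1360, 1728, 704 and 600 normalized counts across wild type, against 1513, 1613, 1384, 644 and 465 across the libraries labelled *Mgp*-KO. The values of the genotypes overlapped throughout, and the low values were those of replicates 4 and 5 of both. The log2 fold change was -0.08 ± 0.41 (SE), with a 95% interval of -0.97 to 0.81 (adjusted p = 0.965 in limma), and within replicates 1 to 3 it was 0.03. Set against replicates 1 to 3, replicates 4 and 5 were lower by -1.31 on the log2 scale (adjusted p = 0.000125).

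The balance of the receptors was read per length of exon. *Nr1h3* over *Nr1h2*, in normalized counts per kb, was 0.708 to 0.805 in wild type 1 to 3 and 0.470 to 0.616 in *Mgp*-KO 1 to 3. Replicates 4 and 5 had 2.14 and 2.40 for wild type, against 1.35 and 1.78 for the libraries labelled *Mgp*-KO. The ratio was thus lower in the *Mgp*-KO group without overlap in each set, while over all 10 libraries the sets spread it more than the genotypes did (exact two-sided permutation p = 0.405, n = 5 and 5). *Rxra* (chr2:27676440-27762957, plus strand), which encodes the partner of both receptors, held 1154, 1165, 1381, 1145 and 1125 normalized counts across wild type, against 1295, 1785, 1055, 806 and 834 across the other group. Wild type was even except for replicate 3, and the libraries labelled *Mgp*-KO lay on both sides of it. The log2 fold change was -0.11 ± 0.22 (SE; adjusted p = 0.906 in limma), 0.13 within replicates 1 to 3 and -0.47 within replicates 4 and 5.

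*Srebf1* (chr11:60199089-60222581, minus strand) had the largest difference of the 10 over all libraries, though not within replicates 4 and 5, where that of *Insig1* was larger. It held 4859, 4795, 7025, 1149 and 3783 normalized counts across wild type 1 to 5, against 2772, 2317, 3142, 803 and 1498 across the libraries labelled *Mgp*-KO 1 to 5. Wild type 4 was low, below *Mgp*-KO 1 to 3 and 5, and so the groups overlapped. The mean was 4322 ± 2132 (SD, n = 5) against 2106 ± 952 (SD, n = 5), and the log2 fold change was -0.97 ± 0.49 (SE), with a 95% interval of -2.05 to 0.10. The adjusted p was 0.531 in limma, and an exact two-sided permutation test of the gene gave p = 0.127.

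Within replicates 1 to 3 *Srebf1* passed the test and was the only 1 of the 10 that did. Its log2 fold change there was -1.01 ± 0.19 (SE; adjusted p = 0.0361 in limma), from means of 5560 ± 1270 (SD, n = 3) and 2744 ± 413 (SD, n = 3), where 3.54% of all genes passed. Within replicates 4 and 5 the fold change was of like size, -0.93, but its SE was 0.61 (adjusted p = 0.687), and no gene passed there in limma, with 6.23% of genes at an unadjusted p under 0.05. With the set term over all libraries the adjusted p was 0.110 in limma and 0.0126 in DESeq2, which called 7.42% of genes there. Leaving out wild type 4 gave -1.40 (adjusted p = 0.201) and leaving out the library labelled *Mgp*-KO 4 gave -0.67 (adjusted p = 0.626). Without both libraries labelled *Mgp*-KO that hold *Mgp* reads it was -0.45 (adjusted p = 0.637), and without wild type 2 as well -0.36. The counts are of the whole gene, so the starts of *Srebf1* were not told apart. Its exons share 109 bases with *Rai1* on the opposite strand, 1.93% of its exon length.

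*Srebf2* (chr15:82147181-82205379, plus strand) held 688, 750.2, 715, 317 and 388 normalized counts across wild type, against 635, 470, 602, 374 and 400 across the libraries labelled *Mgp*-KO. Replicates 1 to 3 were lower in *Mgp*-KO without overlap, and in replicates 4 and 5 the genotypes overlapped, with wild type 4 the lowest of all. The log2 fold change was -0.15 ± 0.28 (SE; adjusted p = 0.895 in limma), -0.35 within replicates 1 to 3 (adjusted p = 0.208) and 0.14 within replicates 4 and 5. *Srebf1* over *Srebf2* per kb averaged 9.35 ± 3.30 (SD, n = 5) for wild type, against 5.21 ± 1.56 (SD, n = 5) in the *Mgp*-KO group. In replicates 1 to 3 this ratio ran from 8.15 to 12.5 in wild type and from 5.57 to 6.66 in *Mgp*-KO without overlap, while over all libraries the groups overlapped (exact two-sided permutation p = 0.0556, n = 5 and 5).

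The sterol-sensing partners of SREBP held no call between genotypes. *Scap* (chr9:110333288-110384950, plus strand) held 936, 870.04, 1031, 594 and 609 normalized counts across wild type, against 941, 892, 764, 418 and 342 across the libraries labelled *Mgp*-KO. Replicates 1 to 3 of the genotypes overlapped, and in replicates 4 and 5 both *Mgp*-KO values lay below both of wild type. The log2 fold change was -0.35 ± 0.31 (SE; adjusted p = 0.751 in limma). Replicates 1 to 3 alone gave -0.13, and replicates 4 and 5 alone -0.67.

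*Insig1* (chr5:28071363-28078662, plus strand) is both a brake on SREBP and, as background, a gene that SREBP raises. It held 1831, 1988, 2229, 1297 and 5081 normalized counts across wild type, against 1868, 1746, 1763, 973 and 844 across the libraries labelled *Mgp*-KO. Wild type 5 was more than the double of any other library, and replicates 1 to 3 of the genotypes overlapped. The log2 fold change was -0.70 ± 0.36 (SE), with a 95% interval of -1.49 to 0.09 (adjusted p = 0.540 in limma). It was -0.17 within replicates 1 to 3, -1.50 within replicates 4 and 5, and -0.40 over the 9 libraries without wild type 5. Without the libraries labelled *Mgp*-KO 4 and 5 no regulator passed in limma, where 1.95% of all genes did. *Insig2* (chr1:121304353-121332589, minus strand), its paralogue, held 426, 424, 389, 471 and 575 normalized counts across wild type, against 399, 415, 351, 259 and 437 across the other group. Its libraries varied least among the sterol sensors, the groups overlapped, and the log2 fold change was -0.31 ± 0.19 (SE; adjusted p = 0.614 in limma). The set of replicates 1 to 3 gave -0.09 and that of replicates 4 and 5 gave -0.63. *Insig1* over *Insig2* per kb was 5.91 ± 2.55 (SD, n = 5) for wild type, against 4.40 ± 1.36 (SD, n = 5) in the *Mgp*-KO group (exact two-sided permutation p = 0.310).

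Neither gene of the carbohydrate-sensing pair passed the test. ChREBP (*Mlxipl*, chr5:135089890-135138382, plus strand) held 4789, 4887, 5328, 2997 and 5399 normalized counts across wild type, against 2810, 6124, 4040, 3974 and 3386 across the libraries labelled *Mgp*-KO. Its highest value of all was *Mgp*-KO 2 and its lowest *Mgp*-KO 1, so the replicates of 1 genotype spanned the whole range. The log2 fold change was -0.22 ± 0.25 (SE; adjusted p = 0.811 in limma), with a 95% interval of -0.76 to 0.32. Replicates 1 to 3 alone gave -0.28 and replicates 4 and 5 alone -0.13. Total reads of the gene cannot separate its forms, which as background differ in activity.

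*Mlx* (chr11:101087277-101092207, plus strand) held 441, 466, 499.9, 440 and 779 normalized counts across wild type, against 395, 354, 348, 295 and 499 across the libraries labelled *Mgp*-KO. Replicates 1 to 3 did not overlap, and over all libraries only *Mgp*-KO 5 rose into the wild-type range. The mean was 525 ± 144 (SD, n = 5) against 378 ± 76.5 (SD, n = 5), a log2 fold change of -0.46 ± 0.21 (SE; unadjusted p = 0.0502, adjusted p = 0.482 in limma). An exact two-sided permutation test of the gene alone gave p = 0.0397. Within replicates 1 to 3 the fold change was -0.36 (adjusted p = 0.141 in limma) and within replicates 4 and 5 it was -0.61. Of its exon bases 19.3% are shared with *Psmc3ip* on the opposite strand, which had a mean of 16.6 normalized counts. *Mlxipl* over *Mlx* per kb was 3.30 ± 0.75 (SD, n = 5) and 4.06 ± 1.60 (SD, n = 5), with overlap (exact two-sided permutation p = 0.389).

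**Figure D2:**
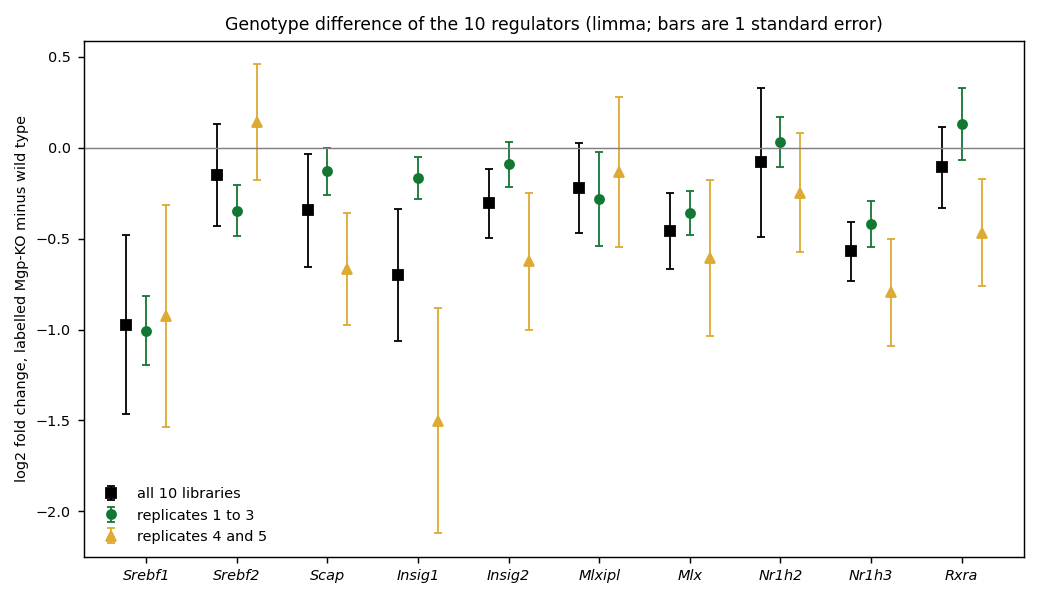
Log2 fold change of each regulator, labelled *Mgp*-KO minus wild type, over all 10 libraries (squares), within replicates 1 to 3 (circles) and within replicates 4 and 5 (triangles), with bars of 1 SE from limma. All but *Srebf2*, *Nr1h2* and *Rxra* lie below 0 in each, and *Insig1* differs most between the sets (-0.17 and -1.50).

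Within replicates 1 to 3, 8 of the 10 had a fold change below 0 and 4 did not overlap (*Srebf1*, *Srebf2*, *Mlx* and *Nr1h3*), all lower in *Mgp*-KO, where 30.6% of all genes did not overlap and 15.1% did so as lower. Within replicates 4 and 5, 9 of the 10 lay below 0 and 5 did not overlap (*Scap*, *Insig1*, *Insig2*, *Nr1h3* and *Rxra*), each as lower, where 41.6% of all genes did not and 21.3% did so as lower. The genotype effect was not shown to differ between the sets for any of the 10 (limma interaction, smallest adjusted p = 0.483, for *Insig1* and *Scap*), and 0.00729% of all genes passed that test. At an unadjusted p under 0.05 none of the 10 passed it, beside 10.3% of all genes, and edgeR's interaction called none. The sets themselves differed in 4 of the 10, beside 38.2% of all genes. These were *Nr1h2*, *Srebf1* (-1.35, adjusted p = 0.00543), *Scap* (-0.92, adjusted p = 0.000859) and *Srebf2* (-0.79, adjusted p = 0.00222), each lower in replicates 4 and 5 in limma. Read depth and the mitochondrial share move with the sets, and their part was not tested.

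Levels were then set side by side per kb of exon. In wild type ChREBP led with 845 ± 177 (SD, n = 5), followed by *Insig1* at 803 ± 482 and *Srebf1* at 767 ± 378 normalized counts per kb. The receptors came next, with *Nr1h3* at 375 ± 62.2 and *Nr1h2* at 342 ± 143, then *Mlx* at 263 ± 71.9 and *Rxra* at 219 ± 19.4. *Insig2* at 132 ± 20.7, *Scap* at 109 ± 26.5 and *Srebf2* at 79.6 ± 28.3 (SD, n = 5 each) were lowest. The ranges of neighbours in this order overlapped, except at the step from *Rxra* to *Insig2*. The order is that of means, and *Insig1* stood above *Srebf1* in only 2 of the 5 wild-type libraries, as did *Nr1h3* above *Nr1h2*. *Scap* stood above *Srebf2* within each of the 5 wild-type libraries, although their ranges overlapped. In the libraries labelled *Mgp*-KO the order of means was the same except that *Nr1h2* stood above *Nr1h3* and *Rxra* above *Mlx*. By library, *Nr1h2* stood above *Nr1h3* in replicates 1 to 3 of both genotypes and below it in replicates 4 and 5 of both.

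**Figure D3:**
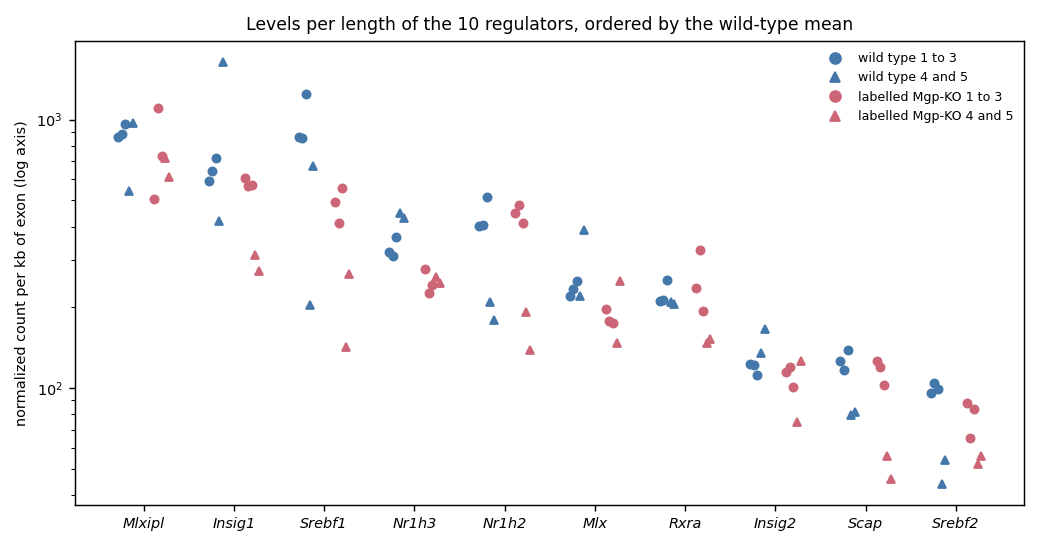
Normalized counts per kb of exon (log axis) of the 10 regulators in each library, ordered by their wild-type mean, with symbols as for the plot by library. *Insig2*, *Scap* and *Srebf2* (wild-type means of 132, 109 and 79.6) lie below the other 7, and wild type 5 stands out in *Insig1*.

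The second question was whether the regulators followed *Fasn* over libraries. *Fasn* (chr11:120805846-120824547, minus strand) held 156832, 289550, 386840, 74790 and 175522 normalized counts across wild type 1 to 5, against 15260, 12623, 13104, 23736 and 5989 across the libraries labelled *Mgp*-KO 1 to 5. All wild-type libraries lay above all others, with a log2 fold change of -3.86 ± 0.48 (SE; adjusted p = 0.0255 in limma) and of -4.25 within replicates 1 to 3. Since *Fasn* separates the genotypes, no correlation over all libraries is given, and each value was centred on the mean of its genotype. Over the 10 libraries none of the 10 regulators then passed an exact two-sided permutation test within genotypes, adjusted over 13713 genes, and none of all genes did, with 7.64% at an unadjusted p under 0.05.

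For *Srebf1* the relation to *Fasn* had Pearson's r = 0.46 (permutation p = 0.215, adjusted p = 0.705) and Spearman's rho = 0.52 (permutation p = 0.167). Without wild type 4 and the library labelled *Mgp*-KO 5, the farthest from the median of *Fasn*, r was -0.24. That relation rested on wild type 4, since r was -0.01 without it alone and 0.46 without *Mgp*-KO 5 alone, while leaving out the library labelled *Mgp*-KO 4 alone gave r = 0.91. With both genes centred on genotype and set, r was 0.17.

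*Srebf2* had r = 0.57 (permutation p = 0.133, adjusted p = 0.673) and rho = 0.60 (permutation p = 0.137), which fell to r = 0.10 without the same 2 libraries and was 0.24 within sets. Leaving out 1 library moved r from 0.28 (without wild type 4) to 0.82 (without *Mgp*-KO 4), and leaving out *Mgp*-KO 4 raised it to 0.76 for *Scap* and 0.78 for *Nr1h2*, with adjusted p of 0.116, 0.119 and 0.133 for the 3 genes. *Insig2* ran against *Fasn*, with r = -0.62 (permutation p = 0.0680, adjusted p = 0.640) and rho = -0.66 (permutation p = 0.0496). Without those libraries r was -0.71, and on leaving out any 1 library it ran from -0.74 to -0.51. With genotype and set centring it was -0.56 (permutation p = 0.590; rho = -0.37, permutation p = 0.569). *Insig1* had r = 0.32 (permutation p = 0.424) and rho = 0.33 (permutation p = 0.391), and r = -0.50 without the 2 libraries. With genotype and set centring it gave r = 0.59 (permutation p = 0.0208) and rho = 0.92 (permutation p = 0.00694, the smallest that 144 permutations can give), with an adjusted p of 1 for r over all genes.

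Among the others, *Mlxipl* had r = 0.47 (permutation p = 0.193) and rho = 0.30 (permutation p = 0.438), and *Nr1h2* r = 0.52 (permutation p = 0.143) and rho = 0.54 (permutation p = 0.128). *Scap* had r = 0.45 (permutation p = 0.193) and rho = 0.38 (permutation p = 0.249). *Nr1h3*, although it separated the genotypes as *Fasn* did, ran at r = -0.34 within them (permutation p = 0.424; rho = -0.27, permutation p = 0.514). *Mlx* gave r = -0.28 (permutation p = 0.479; rho = -0.08, permutation p = 0.848) and *Rxra* r = 0.17 (permutation p = 0.682; rho = 0.22, permutation p = 0.518). Without the 2 farthest libraries r was -0.13 for *Mlxipl*, 0.01 for *Nr1h2*, -0.19 for *Scap*, 0.02 for *Nr1h3*, -0.39 for *Mlx* and -0.24 for *Rxra*. Within sets it was 0.36, 0.56, 0.60, 0.30, -0.07 and 0.05 in the same order.

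**Figure D4:**
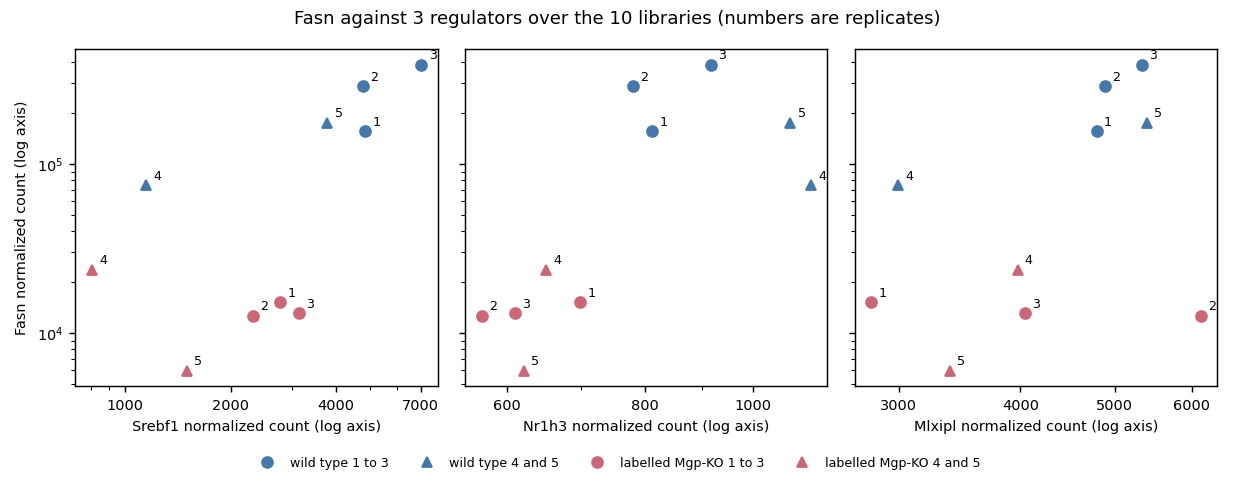
Normalized counts of *Fasn* against those of *Srebf1*, *Nr1h3* and *Mlxipl* in the 10 libraries (log axes), numbered by replicate. Wild type 4 holds little *Srebf1* (1149) and still more *Fasn* (74790) than any library labelled *Mgp*-KO, and *Nr1h3* separates the genotypes.

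The size of the *Fasn* difference was set beside that of its regulator. *Fasn* over *Srebf1* per kb was 16.6, 31.1, 28.3, 33.5 and 23.9 in wild type 1 to 5. It was 2.83, 2.80, 2.15, 15.2 and 2.06 across the libraries labelled *Mgp*-KO 1 to 5. The ratio was lower in each of the latter. Of the libraries labelled *Mgp*-KO that hold *Mgp* reads, number 4 came nearest to wild type and number 5 had the lowest ratio of all. The *Srebf1* of wild type 4 (1149 normalized counts) lay below the 2317 to 3142 of *Mgp*-KO 1 to 3 while its *Fasn* was above all of theirs, a comparison across the sets, which themselves differed in *Srebf1*. In its own set it lay above the 803 of the library labelled *Mgp*-KO 4 and below the 1498 of number 5.

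The genes on which the regulators act were counted next, in lists compiled from general knowledge with earlier results of these data known. The lists share no gene, although regulators can share targets. *Fasn*, whose promoter holds the LXR repeat, was counted with the SREBP-1 targets only. Of 16 SREBP-1 targets of fatty acid synthesis, 3 passed as lower, beside 0.0583% of all genes, and none as higher. The median log2 fold change was -1.29, and 15 lay below 0. The 3 that passed were *Fasn*, *Acaca* (acetyl-CoA carboxylase, which makes malonyl-CoA, at -2.52, adjusted p = 0.0255 in limma) and *Scd1* (the desaturase that makes oleate, at -4.36, adjusted p = 0.0322). The paper had already reported these 3 as reduced. The next in size were *Me1*, malic enzyme, at -2.45 (adjusted p = 0.052), and *Acly*, ATP citrate lyase, at -2.16 (adjusted p = 0.058). On leaving out wild type 2, 3 or 5, or *Mgp*-KO 1 or 3, no gene passed in limma. With the set term 8 passed as lower, beside 1.54% of all genes. This number was 9 within replicates 1 to 3, beside 1.65%, and 7 with DESeq2, beside 1.26%.

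Among 18 SREBP-2 targets of sterol synthesis and uptake that were tested, none passed in limma, the median was -0.60 and 16 lay below 0. *Nsdhl*, an enzyme late in cholesterol synthesis, had -1.41 (adjusted p = 0.126), and with the set term it passed as lower, as did *Pmvk*, a kinase of the mevalonate pathway, among 3 genes of the list called lower there, beside 1.54% of all genes. DESeq2 also called 3 lower, beside 1.26% of all genes, and 2 passed as lower within replicates 1 to 3, beside 1.65%. Without the libraries labelled *Mgp*-KO 4 and 5, 2 of the list passed as lower in limma, beside 0.955% of all genes. *Fdft1*, squalene synthase, passed there as higher (1.39, adjusted p = 0.048 in limma), beside 0.992%. Of 6 ChREBP targets tested none passed, with a median of -0.14, which was 0.09 within replicates 1 to 3. *Gpd1*, glycerol-3-phosphate dehydrogenase, had -1.16 (adjusted p = 0.172) and *Rgs16* 0.86 (adjusted p = 0.578). Within replicates 1 to 3 *Gpd1* fell (-0.92, adjusted p = 0.044 in limma) and *Txnip*, an inhibitor of glucose uptake, rose (1.28, adjusted p = 0.038), beside 1.65% of all genes lower and 1.9% higher. In replicates 4 and 5 *Txnip* stood at -0.04. The groups of *Gpd1* did not overlap over all libraries, and DESeq2 called it lower (adjusted p = 0.000775). Of 9 LXR targets none passed in limma, 3 lay below 0, and the median was 0.44 over all libraries and 0.15 within replicates 4 and 5. *Abcg1*, a sterol exporter, stood at 1.22 (adjusted p = 0.549) and *Mylip*, which marks the LDL receptor for degradation, at 0.82 (adjusted p = 0.243). Within replicates 1 to 3 *Abcg1* rose by 1.94 (adjusted p = 0.049 in limma) and *Lpcat3* fell (-0.80, adjusted p = 0.030), where 1.9% of all genes passed as higher and 1.65% as lower, and in replicates 4 and 5 *Abcg1* stood at 0.15. *Lpcat3*, the LXR target that remodels phospholipids, was the 1 of the 9 that fell with the set term (-0.78, adjusted p = 0.0197 in limma), beside 1.54% of all genes. Its groups did not overlap over all libraries, beside 2.11% of all genes as lower, and DESeq2 called it lower (adjusted p = 0.00659), beside 1.26%. *Abca1*, whose promoter shares the repeat of *Srebf1* and *Fasn*, had -0.63 (adjusted p = 0.533 in limma).

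The partners of the regulators held no call in limma. The 14 genes that activate or turn over SREBP had a median of 0.01, with *Lpin1*, a phosphatase that keeps SREBP from its targets in the nucleus, at 0.96 (adjusted p = 0.412) and *Paqr3*, a Golgi anchor of SCAP, at -0.94 (adjusted p = 0.606). The lowest *Paqr3* value in the libraries labelled *Mgp*-KO was 1.62 normalized counts, below the floor of 3 reads. Within replicates 1 to 3 its fold change was -0.28. The 6 genes of the MLX network, dimers that share the E-box, had a median of 0.34 and all 6 lay above 0, where *Mlxipl* and *Mlx* lay below, with *Mnt* at 0.45 (adjusted p = 0.760) and *Mga* at 0.42 (adjusted p = 0.580). The 7 RXR partners and LXR coregulators had a median of 0.22, with the corepressor *Ncor1* at 0.80 (adjusted p = 0.358) and *Rxrg* at -0.67 (adjusted p = 0.540). At an unadjusted p under 0.05 over all genes stood 10.4%, and DESeq2 also called none of these 3 lists.

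**Figure D5:**
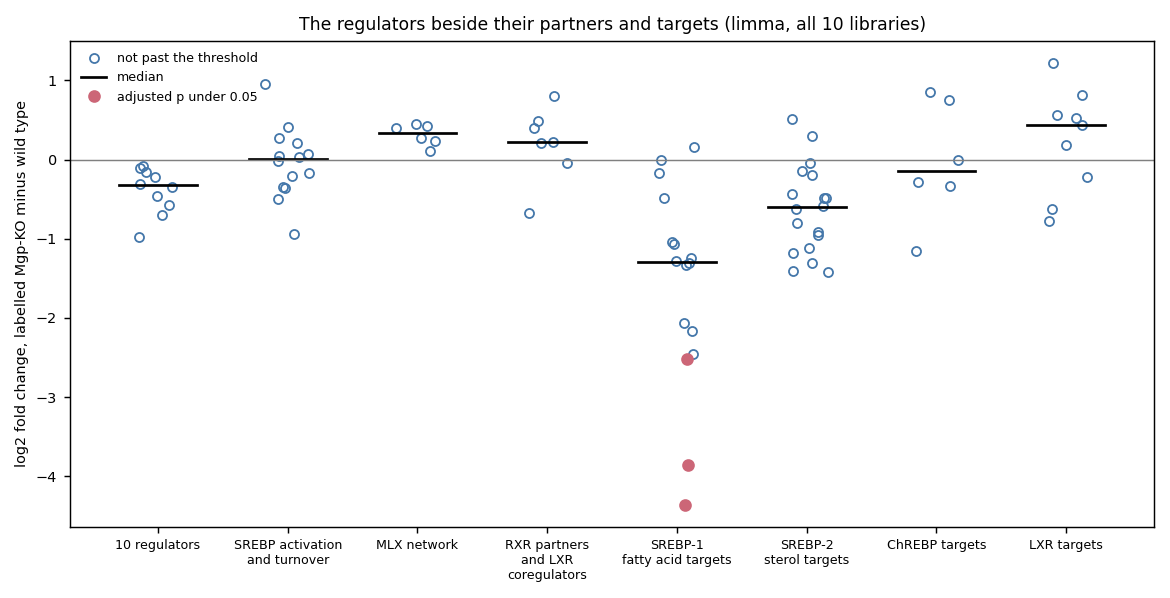
Log2 fold change over all 10 libraries (limma) of the 10 regulators and of each tested gene of the lists of their partners and targets, with a black line at each median and filled points for an adjusted p under 0.05. The 3 filled points, at -2.52, -3.86 and -4.36, are all in the list of SREBP-1 targets, which shares no gene with the other lists. The regulators lie between -0.97 and -0.08.

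The genes whose pattern over the 10 libraries was most like that of a regulator are given as a description, by Pearson's r on the log2 scale, where the genotypes and sets are shared by all genes. For *Srebf1* these were *Mtor* (0.99), the kinase that as background promotes SREBP activity, *Ank* (0.96) and *Copg2* (0.96). For *Insig1* they were *Akirin1*, *Snx17* and *Golph3* (0.91 each). For *Mlxipl* they were a row whose symbol had been turned into a date (0.89), *Parp2* (0.87) and *Dis3* (0.87).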

How the data were processed

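The authors mapped single reads to the mm10 genome with STAR, counted them on genes and divided each count by the size factor of its library from DESeq2. The deposited values are thus a signal per gene in normalized counts. Divided by the value of 1 read in their library, all of them (100%) came out whole within a tolerance of 0.01 reads (the worst was off by 0.00067), so reads were recovered. A floor of 3 reads corresponds to 2.15 to 5.19 normalized counts and covers counting error only. The annotation release and strand setting are not given in the sources used here, so overlapping genes can share reads.

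The 10 genes, the gene lists and the tests were chosen with earlier results of these data known. Limma 3.58.1 in R 4.3.3 (lmFit, eBayes with trend) was run without a block on log2(normalized count + 1) of the 13714 genes with a mean of at least 10, with Benjamini-Hochberg adjustment and a threshold of 0.05. The added 1 makes fold changes of low genes smaller than they are. DESeq2 1.42.0 and edgeR 4.0.16 on recovered reads were alternatives. Each model was tested on simulated data. Coordinates and exon lengths come from GENCODE on GRCm38, in which 25672 of the symbols (94.2%) were found, and promoters from RefSeq (GRCm38.p6), in which all 10 genes had an entry. Named genes are the 10 regulators, *Mgp*, *Fasn*, the genes of each list that passed and otherwise the 2 with the largest change, and the 3 most alike to *Srebf1*, *Mlxipl* and *Insig1*. *Xist*, *Ucp1*, *Dio2*, *Elovl3*, *Pmvk*, *Fdft1*, *Txnip*, *Abca1*, *Lpcat3*, *Rai1* and *Psmc3ip* were named after their values were seen. The values of 1 gene that this rule names are not reported here.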

Additional observations from a re-analysis of the deposited data

Results flagged for a closer look

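In 4 of the 22 groups of 5 libraries that were examined for a value far from the rest, 1 wild-type library stood apart by the 95% limit of Dixon's gap test, where chance gives about 1 group in 20. The groups were the 10 regulators and *Fasn* in each genotype. *Insig1* in wild type 5 (5081 normalized counts) and *Mlx* in the same library (779) were far above the other wild-type values. *Mlxipl* in wild type 4 (2997) was far below them. *Rxra* in wild type 3 (1381) was above a tight group of 4. Without wild type 5 the log2 fold change of *Insig1* was -0.40 and that of *Mlx* -0.31, neither past the test in limma.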

How the results depend on the processing

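Over 26 other settings the log2 fold changes of the 10 regulators kept their direction and their side of the threshold in 236 of 260 combinations, gained a call in 7 and turned direction in 17, and the cause was not tested. None of the 10 was called in limma over all libraries or on leaving out 1 library. *Nr1h3* alone was called with a set term in limma and with DESeq2. *Srebf1* alone was called within replicates 1 to 3 and with the replicate block in limma or edgeR. DESeq2 with a set term called both of these genes. Of all genes 9 were called, against 29 with a pseudocount of 10, 1 with no filter, 15 with a mean of at least 50, 25 with equal upper quartiles, 324 with the set term, 374 with DESeq2, 1152 with DESeq2 and the set term, and 3 with edgeR. It was 486 within replicates 1 to 3, 0 within replicates 4 and 5, 267 without the libraries labelled *Mgp*-KO 4 and 5, 97 without these and wild type 2, and 0 (without wild type 2, 3 or 5, or *Mgp*-KO 1 or 3) to 93 (without *Mgp*-KO 4) on leaving out 1 library. The pathway lists held 3 calls, and 12, 15 and 12 with the set term, within replicates 1 to 3 and without *Mgp*-KO 4 and 5. Leaving these out keeps replicates 4 and 5 in wild type only, so genotype and set are mixed there by construction.

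The replicate number as a block raised the calls to 270 in limma and 222 in edgeR, *Srebf1* among them (adjusted p = 0.0278 and 0.0367). Same-numbered libraries deviated from their group means with correlations of 0.527, 0.0559, 0.327, 0.523 and 0.514, and libraries of other numbers of the same set with a mean of 0.404, so the numbers were not taken to pair the libraries. The methods speak of 5 pairs of mice and do not tie them to the numbers. Not every library correlated best with its own number.

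Directions turned for *Nr1h2* (0.032) and *Rxra* (0.13) within replicates 1 to 3 and for *Srebf2* (0.14) within replicates 4 and 5. Without *Mgp*-KO 4 and 5 they turned for *Srebf2* (0.066), *Scap* (0.13), *Nr1h2* (0.50) and *Rxra* (0.18), and without wild type 2 as well these were 0.19, 0.17, 0.59 and 0.17. On leaving out 1 library *Nr1h2* ran from -0.28 to 0.20 and *Rxra* from -0.28 to 0.0043. With no turn of direction or call, *Scap* ran from -0.50 (without *Mgp*-KO 1) to -0.13 (without *Mgp*-KO 5), *Srebf2* from -0.34 (without wild type 4) to -0.03 (without wild type 2), *Mlxipl* from -0.38 (without *Mgp*-KO 2) to -0.10 (without *Mgp*-KO 1) and *Insig2* from -0.37 (without *Mgp*-KO 5) to -0.18 (without *Mgp*-KO 4). For the relation to *Fasn*, r turned for *Nr1h3* with set centring (0.30). Without the 2 farthest libraries it turned for *Srebf1* (-0.24), *Scap* (-0.19), *Insig1* (-0.50), *Mlxipl* (-0.13), *Nr1h3* (0.024) and *Rxra* (-0.24). On leaving out 1 library it ran from -0.015 to 0.91 for *Srebf1*, -0.44 to 0.047 for *Nr1h3*, -0.62 to 0.0064 for *Mlx* and -0.11 to 0.50 for *Rxra*.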
